A study of Mus musculus with 11 samples.

Results

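The genes of glycolysis, with the isoforms that differ between tissues, and genes of the response to low oxygen were described in mouse induced pluripotent stem cells, embryonic stem cells and the cells from which the induced cells were made. The 32 genes were chosen by symbol for their function and not by a cutoff on measured values, but with earlier results of these data known. Of these, 29 were among the 18193 genes of the table, with 61 probe sets between them, and 16 of the 29 had more than 1 probe set. Gapdh was represented by 3 control probe sets outside that table, and Gpi1 and Eno1 were not analysed here. The study hybridized total RNA to Affymetrix mouse arrays. The groups were pluripotent cells reprogrammed from ventricular myocytes (ViPSC, 3 arrays), pluripotent cells reprogrammed from tail tip fibroblasts (TiPSC, 3 arrays) and embryonic stem cells matched to them genetically (ESC, 3 arrays), with 1 array each for the starting cells, ventricular myocytes (VM) and fibroblasts of the tail tip (TTF), both from pups at postnatal day 1. All 5 groups shared a mixed background of C57/Bl and BlackSwiss, and the labels name neither the reprogramming factors nor the number of lines. The pluripotent cells were grown with LIF on irradiated fibroblast feeders, most of which a replating step was meant to remove ahead of RNA extraction. Whether a group's 3 arrays stem from separate cultures is not stated, so p values measure only the spread between these arrays, which may be technical.

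Glycolysis splits glucose into pyruvate, and most of its steps can be carried out by several isoforms encoded by separate genes, some of which are typical of muscle, brain or proliferating cells. Pyruvate is reduced to lactate and exported, or enters the mitochondrion through the pyruvate dehydrogenase complex, which the pyruvate dehydrogenase kinases switch off. The transcription factor HIF-1, whose regulated subunit is encoded by Hif1a, raises transcription of glucose carriers, glycolytic enzymes and Pdk1 when oxygen is low, and the heart turns from glycolysis towards fatty acid oxidation around birth.

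HIF-1 binds short core sequences, so the 250 bases before the RefSeq gene starts (build GRCm38.p6) were searched for ACGTG and for GCGTG on both strands. The sequences below are a selection, and each holds at least 1 core sequence. They come from the members that passed the test described later (Aldoc and Eno3). The rest come from some of the members with a high level in stem cells or a different direction in the 2 origins. Other such members, among them Pfkm, Ldhb, Pdk4 and Tpi1, are not shown, and Tpi1 held neither core sequence. Ldha and Aldoc each had another promoter that is not shown, which in Ldha held 1 GCGTG and no ACGTG. The sequences run 5′ to 3′ on the strand of the gene, and capitals mark both core sequences, read as CACGT or CACGC where they lie on the opposite strand.
Ldha (chr7:46845554-46845803, + strand): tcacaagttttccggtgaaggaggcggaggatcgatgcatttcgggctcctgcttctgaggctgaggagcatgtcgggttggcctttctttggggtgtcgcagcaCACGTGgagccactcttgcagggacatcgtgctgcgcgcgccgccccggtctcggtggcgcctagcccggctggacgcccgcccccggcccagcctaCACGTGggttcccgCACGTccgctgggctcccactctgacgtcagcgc
Bnip3 (chr7:138909507-138909756, - strand): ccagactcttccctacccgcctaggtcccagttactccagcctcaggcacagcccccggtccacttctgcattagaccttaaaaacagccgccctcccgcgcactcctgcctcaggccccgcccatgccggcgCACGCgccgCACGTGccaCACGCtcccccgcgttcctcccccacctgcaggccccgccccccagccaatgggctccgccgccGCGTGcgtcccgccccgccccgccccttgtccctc
Slc2a1 (chr4:119108495-119108744, + strand): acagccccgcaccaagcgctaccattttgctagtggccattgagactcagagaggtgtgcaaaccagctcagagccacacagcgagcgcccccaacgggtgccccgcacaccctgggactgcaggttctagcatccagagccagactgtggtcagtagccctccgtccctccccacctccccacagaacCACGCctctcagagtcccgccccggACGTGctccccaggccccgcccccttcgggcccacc
Slc16a3 (chr11:120948817-120949066, + strand): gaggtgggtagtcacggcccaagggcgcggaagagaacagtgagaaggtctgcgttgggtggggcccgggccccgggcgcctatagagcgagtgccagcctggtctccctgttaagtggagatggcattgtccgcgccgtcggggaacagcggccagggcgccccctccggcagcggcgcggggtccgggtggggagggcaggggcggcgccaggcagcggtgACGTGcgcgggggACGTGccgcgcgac
Aldoc (chr11:78322823-78323072, + strand): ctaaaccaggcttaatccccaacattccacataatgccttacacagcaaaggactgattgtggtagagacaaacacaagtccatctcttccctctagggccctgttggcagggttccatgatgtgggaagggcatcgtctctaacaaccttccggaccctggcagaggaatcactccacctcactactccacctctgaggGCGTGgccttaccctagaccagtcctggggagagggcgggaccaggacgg
Eno3 (chr11:70656926-70657175, + strand): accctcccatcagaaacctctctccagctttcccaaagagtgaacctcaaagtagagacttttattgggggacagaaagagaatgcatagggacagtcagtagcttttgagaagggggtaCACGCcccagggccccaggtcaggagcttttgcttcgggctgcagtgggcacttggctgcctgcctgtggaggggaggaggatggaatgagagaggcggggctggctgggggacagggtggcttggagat
A palindromic CACGTG, as in Ldha and Bnip3, counts on both strands. RefSeq promoters matched 30 of the 32 genes, and 27 of these 30 held at least 1 core sequence in at least 1 promoter (90.0%), against 41.5% of all genes with a promoter. For ACGTG alone the shares were 53.3% and 18.5%, and for GCGTG alone 66.7% and 30.9%. These shares by gene grow with the number of promoters per gene. Counted by promoter, 77.8% of the 45 member promoters held either core sequence, against 38.6% of all 32851 promoters. The member promoters also held more G and C, with a median of 60.4% against 52.4% in all promoters, and both core sequences contain CG. A match of 5 letters is a description of the sequence and not evidence of binding.

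The values were log2 expression values made by RMA, so a difference of 1 log2 unit is a 2-fold difference. RMA compresses differences near the bottom of the scale, no detection calls were used, and levels of different genes cannot be set against each other. The labels were checked on marker lists. The 8 pluripotency markers had medians of 12.43 to 12.50 in ViPSC, 12.31 to 12.37 in TiPSC and 12.22 to 12.75 in ESC, against 4.09 in VM and 3.95 in TTF. The 10 cardiac myocyte markers had a median of 14.25 in VM and 4.02 in TTF. The VM array also held endothelial transcripts (median of 8 markers 10.46, against 4.18 in TTF) and fibroblast transcripts (median of 11 markers 10.50, against 13.33 in TTF). The part of these cells in the VM values below was not tested. In such bulk samples, fewer cells of a type and less RNA per cell cannot be told apart. Among the pluripotent arrays, ESC 2 and ESC 3 stood apart from ESC 1. Their expressed X-linked genes had median shifts of 0.65 log2 units above the mean of the 9 arrays, against −0.15 in ESC 1, −0.20 to −0.19 in ViPSC and −0.18 to −0.12 in TiPSC. Expressed genes of chromosome 11 were shifted by 0.26 to 0.27 in ViPSC, by −0.20 in TiPSC and by −0.20 to 0.19 in ESC, with the high value in ESC 3. Genes of 5 members lie on chromosome 11, namely Aldoc, Eno3, Slc2a4, Slc16a3 and Pdk2, and that of Pgk1 lies on the X chromosome.

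Between the source cells, Pfkm, Eno3 and Slc2a4, known from muscle, and the kinase genes Pdk2 and Pdk4 were high in VM, whereas Pfkl, Pgam1 and the carriers Slc2a1 and Slc16a3 were lower there than in TTF. Of 29 members, 9 were at least 1 log2 unit higher in VM (background 10.6% of all genes) and 9 at least 1 log2 unit lower (background 13.6%). Each source had 1 array, so these differences have no replicate check and no test. The members higher in VM were Hk2, Pfkm, Pfkp, Eno3, Ldhb, Slc2a4, Slc16a1, Pdk2 and Pdk4, and those lower were Pfkl, Pgam1, Eno2, Slc2a1, Slc2a3, Slc16a3, Hif1a, Bnip3 and Ddit4. With induced cells set against their own source, 10 members were at least 1 log2 unit higher and 7 lower in all 3 ViPSC arrays than in VM (background 16.7% higher and 13.8% lower). For all 3 TiPSC arrays against TTF these counts were 7 higher and 3 lower (background 13.3% and 13.1%). All 9 pluripotent arrays lay at least 1 log2 unit above both source arrays for Aldoc and Slc2a3, and below both for Vegfa, which are 2 and 1 of 29 members against 7.38% and 5.06% of all genes. In either direction, the background was 24.3% of genes for VM against TTF, 30.5% for ViPSC against VM, 26.4% for TiPSC against TTF and 12.4% for all 9 arrays against both sources.

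**Figure D1:**
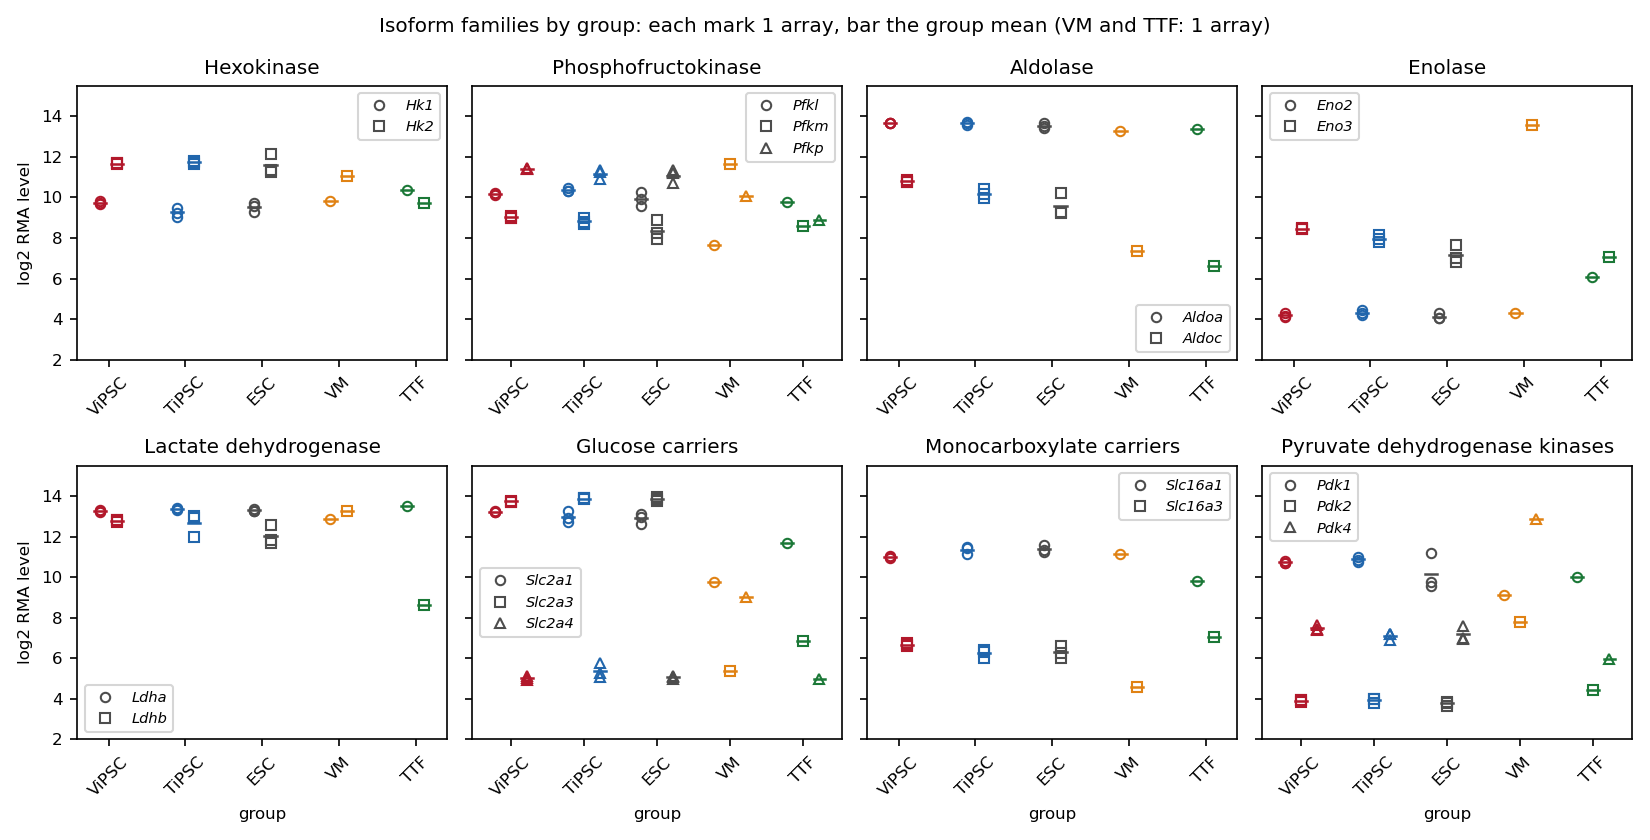
Log2 RMA levels (vertical axis) of the isoforms of 8 families in ViPSC, TiPSC, ESC, VM and TTF (horizontal axis). Each mark is 1 array, its shape gives the gene, and each short bar is the group mean, which for VM and TTF is the single array. Slc2a3 lies above 13.7 on every pluripotent array and below 7 in both sources, and Pfkm, Eno3, Slc2a4, Pdk2 and Pdk4 stand out in VM.

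Glucose enters the cell through the carriers of the Slc2a family, and Slc2a3 had the widest difference of the 29 members between pluripotent and source cells. Slc2a3 encodes GLUT3, a high-affinity carrier known from neurons and the early embryo. Its level was 13.73, 13.78 and 13.74 in ViPSC, 13.90, 13.90 and 13.85 in TiPSC and 13.88, 13.78 and 13.97 in ESC, against 5.37 in VM and 6.87 in TTF. The pluripotent and source arrays did not overlap, and the mean difference was 8.38 log2 units for ViPSC minus VM and 7.02 for TiPSC minus TTF. Each of the 4 Slc2a3 probe sets was higher in all 9 pluripotent arrays than in both sources.

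Slc2a1 encodes GLUT1, the carrier of most proliferating cells. It was at 13.24, 13.26 and 13.21 in ViPSC, 12.94, 12.73 and 13.27 in TiPSC and 12.98, 12.65 and 13.11 in ESC, against 9.74 in VM and 11.71 in TTF. All pluripotent arrays were above both sources, by a mean of 3.49 log2 units for ViPSC minus VM and 1.27 for TiPSC minus TTF. Slc2a4, the insulin-responsive GLUT4 of heart, skeletal muscle and fat, was at 5.13, 5.04 and 4.94 in ViPSC, 5.10, 5.78 and 5.29 in TiPSC and 5.13, 5.07 and 4.98 in ESC, against 9.04 in VM and 4.99 in TTF. VM alone was high, and its second probe set was likewise higher in VM (7.53) than in TTF (4.85).

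Hexokinases trap glucose as its 6-phosphate. Hk2, the inducible isoform of muscle and of many dividing cells, was at 11.70, 11.68 and 11.65 in ViPSC, 11.64, 11.76 and 11.78 in TiPSC and 12.16, 11.28 and 11.36 in ESC, against 11.07 in VM and 9.73 in TTF. All pluripotent arrays exceeded both sources, with the TTF array the lowest. Hk1, the widely expressed isoform, was at 9.71, 9.84 and 9.68 in ViPSC, 9.25, 9.48 and 9.05 in TiPSC and 9.27, 9.71 and 9.60 in ESC, against 9.84 in VM and 10.36 in TTF. For Hk1 the TTF array was the highest of the 11 on this probe set. On its second probe set ViPSC 2 (7.20) was above TTF (7.10).

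Phosphofructokinase commits the sugar to glycolysis and is built from liver (Pfkl), muscle (Pfkm) and platelet (Pfkp) subunits. Pfkl was at 10.21, 10.12 and 10.17 in ViPSC, 10.32, 10.46 and 10.31 in TiPSC and 10.28, 9.94 and 9.56 in ESC, against 7.65 in VM and 9.80 in TTF. Pfkm was at 8.99, 9.08 and 8.98 in ViPSC, 8.80, 8.97 and 8.71 in TiPSC and 8.89, 8.24 and 7.93 in ESC, against 11.67 in VM and 8.62 in TTF. Pfkl was thus lower and Pfkm higher in VM than on every other array, by −2.15 and 3.06 log2 units for VM minus TTF. Pfkp was at 11.42, 11.39 and 11.44 in ViPSC, 11.37, 11.25 and 10.89 in TiPSC and 11.19, 10.70 and 11.34 in ESC, against 10.09 in VM and 8.91 in TTF, so that all pluripotent arrays were above both sources.

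Pfkfb3 and Pfkfb4 encode kinases that make fructose 2,6-bisphosphate, the activator of phosphofructokinase. Pfkfb3 was at 6.14, 6.45 and 6.37 in ViPSC, 6.96, 6.45 and 7.01 in TiPSC and 6.82, 5.98 and 6.50 in ESC, against 7.71 in VM and 7.63 in TTF. Both sources were above all pluripotent arrays on this probe set. On its second probe set, near the bottom of the scale, VM (4.09) and TTF (4.01) lay within the range of the pluripotent arrays (3.89 to 4.48). Pfkfb4 was at 6.07, 6.0 and 6.28 in ViPSC, 6.18, 6.28 and 6.34 in TiPSC and 6.12, 6.20 and 6.10 in ESC, against 6.81 in VM and 6.22 in TTF. Here VM was highest and TTF lay within the range of the pluripotent arrays.

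The aldolases split the 6-carbon sugar. Aldoc, the brain-type aldolase, was at 10.77, 10.86 and 10.77 in ViPSC, 10.15, 10.40 and 9.96 in TiPSC and 10.23, 9.26 and 9.24 in ESC, against 7.36 in VM and 6.60 in TTF. The induced cells exceeded their own source by 3.45 log2 units in ViPSC and 3.57 in TiPSC. The second Aldoc probe set stayed between 3.32 and 3.80 on all 11 arrays, near the bottom of the scale. Aldoa, the aldolase of muscle and most other tissues, lay at 13.69, 13.68 and 13.69 in ViPSC, 13.70, 13.71 and 13.58 in TiPSC and 13.66, 13.45 and 13.53 in ESC, against 13.30 in VM and 13.39 in TTF, a span of under 1 log2 unit over all arrays.

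The steps from triose phosphate to phosphoglycerate varied less, with 1 exception. Tpi1, triose phosphate isomerase, lay between 12.52 and 12.87 on the pluripotent arrays, against 12.66 in VM and 13.19 in TTF. Pgk1, phosphoglycerate kinase, lay between 13.70 and 13.97 on the pluripotent arrays, against 13.10 in VM and 13.78 in TTF. The 3 Gapdh control probe sets lay between 14.00 and 14.30 on all 11 arrays. Pgam1, the phosphoglycerate mutase of most tissues, was the exception. It was at 12.48, 12.46 and 12.47 in ViPSC, 12.61, 12.59 and 12.66 in TiPSC and 12.57, 12.52 and 12.63 in ESC, against 9.87 in VM and 12.55 in TTF. VM was 2.68 log2 units below TTF. Pgam2, the muscle mutase from the list of other pathway genes, was at 7.14, 7.12 and 7.13 in ViPSC, 6.0, 6.07 and 6.34 in TiPSC and 6.31, 6.25 and 6.82 in ESC, against 12.69 in VM and 6.09 in TTF, so the mutases of the VM array differed from TTF in opposite directions.

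Enolase makes phosphoenolpyruvate. Eno3, the muscle enolase, was at 8.44, 8.47 and 8.46 in ViPSC, 7.81, 7.93 and 8.16 in TiPSC and 7.68, 6.83 and 6.99 in ESC, against 13.57 in VM and 7.07 in TTF. VM minus TTF was 6.50 log2 units, and ViPSC minus VM was −5.12. Eno2, the neuronal enolase, was at 4.28, 4.10 and 4.15 in ViPSC, 4.42, 4.30 and 4.21 in TiPSC and 4.27, 4.06 and 4.03 in ESC, against 4.29 in VM and 6.09 in TTF, which was the high array. Pkm, pyruvate kinase of muscle and most dividing cells, lay between 12.93 and 13.24 on the pluripotent arrays, against 12.02 in VM and 12.87 in TTF. Its single probe set was not used to tell the PKM1 and PKM2 splice forms apart.

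Lactate dehydrogenase interconverts pyruvate and lactate with M subunits (Ldha) and H subunits (Ldhb, typical of heart). Ldhb was at 12.72, 12.83 and 12.84 in ViPSC, 12.93, 13.04 and 11.99 in TiPSC and 12.58, 11.82 and 11.69 in ESC, against 13.27 in VM and 8.63 in TTF. The TTF array was far below all others, and TiPSC minus TTF was 4.03 log2 units. Its 4 probe sets gave the same order of VM and TTF. Ldha was at 13.32, 13.23 and 13.27 in ViPSC, 13.42, 13.39 and 13.32 in TiPSC and 13.27, 13.29 and 13.35 in ESC, against 12.87 in VM and 13.54 in TTF, where the pluripotent arrays lay between the sources.

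Lactate leaves or enters cells through monocarboxylate carriers. Slc16a1 (MCT1) was at 10.98, 11.04 and 10.94 in ViPSC, 11.45, 11.14 and 11.48 in TiPSC and 11.32, 11.26 and 11.61 in ESC, against 11.13 in VM and 9.83 in TTF. Slc16a3 (MCT4), the exporter of strongly glycolytic cells, was at 6.67, 6.75 and 6.60 in ViPSC, 6.30, 6.03 and 6.40 in TiPSC and 6.24, 6.03 and 6.62 in ESC, against 4.57 in VM and 7.07 in TTF. The sources thus stood in opposite order for the 2 carriers, with the pluripotent arrays between them for Slc16a3.

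The pyruvate dehydrogenase kinases separated the cell types. Pdk4, induced by fasting and fatty acids, was at 7.45, 7.42 and 7.65 in ViPSC, 7.22, 7.22 and 6.93 in TiPSC and 7.59, 6.93 and 7.02 in ESC, against 12.89 in VM and 5.97 in TTF. Pdk2, the widely expressed kinase, was at 3.94, 3.85 and 3.94 in ViPSC, 3.99, 4.0 and 3.80 in TiPSC and 3.80, 3.66 and 3.87 in ESC, against 7.81 in VM and 4.43 in TTF. Both were high in VM, by 6.92 and 3.38 log2 units over TTF. Pdk1, the kinase that HIF-1 induces, was at 10.73, 10.72 and 10.80 in ViPSC, 10.76, 10.87 and 11.02 in TiPSC and 11.21, 9.75 and 9.58 in ESC, against 9.14 in VM and 10.01 in TTF. On this probe set ESC 2 and ESC 3 were below the TTF array, and the other 7 pluripotent arrays were above it. The other Pdk1 probe sets did not repeat this order. On the next brightest, every pluripotent array was above TTF (lowest 9.59 against 9.39). On another, both sources (9.78 in VM, 9.18 in TTF) were above every pluripotent array (highest 9.13).

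Of the hypoxia genes, Hif1a lay between 10.50 and 11.11 on the pluripotent arrays, against 11.20 in VM and 12.69 in TTF. Vegfa, the endothelial growth factor induced by HIF-1, was at 7.01, 6.94 and 6.84 in ViPSC, 7.0, 6.93 and 7.17 in TiPSC and 7.09, 7.13 and 6.97 in ESC, against 8.34 in VM and 8.61 in TTF. On these probe sets both genes were higher in the sources than on any pluripotent array. Of the 4 Hif1a probe sets this held for 2, and on the others VM was at 8.44, within the range of the pluripotent arrays, or at 4.29, below all pluripotent arrays. For Vegfa it held on the second probe set as well, with at most 6.40 on the pluripotent arrays, 7.48 in VM and 7.07 in TTF. There VM was above TTF, and TiPSC minus TTF was −0.89, short of 1 log2 unit. Bnip3, a mitophagy receptor and HIF-1 target, was at 12.32, 12.35 and 12.25 in ViPSC, 12.31, 12.34 and 11.76 in TiPSC and 12.09, 11.56 and 11.87 in ESC, against 10.66 in VM and 12.81 in TTF. Ddit4 (REDD1), an mTORC1 inhibitor induced by hypoxia and other stresses, was at 10.23 in all 3 ViPSC arrays, 10.10, 10.02 and 10.73 in TiPSC and 10.62, 10.51 and 9.80 in ESC, against 9.80 in VM and 10.91 in TTF. The pluripotent arrays lay between the sources for Bnip3, and for Ddit4 likewise, with ESC 3 at the level of VM.

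**Figure D2:**
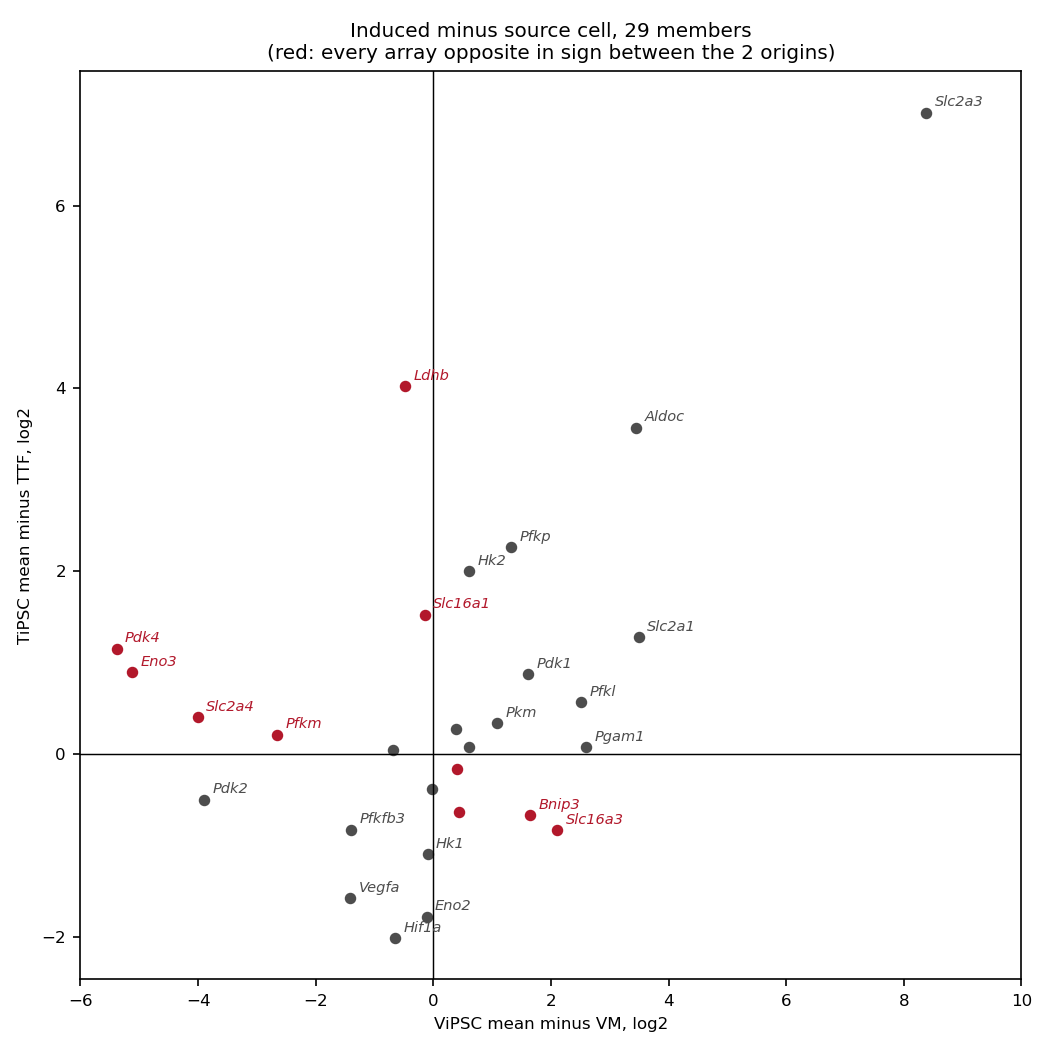
Each point is 1 of 29 members, with the ViPSC mean minus VM on the horizontal axis and the TiPSC mean minus TTF on the vertical axis, both in log2 units (1 source array each, no test). Names are given where a difference exceeds 1 log2 unit. Slc2a3 is at 8.38 and 7.02 and Aldoc at 3.45 and 3.57, and the red points are the 10 members whose arrays all lay on opposite sides of the source in the 2 origins.

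The 3 kinds of pluripotent cells were compared to ask whether the induced cells differed from each other or from embryonic stem cells. The 2 members that passed the test, Aldoc and Eno3, were higher in ViPSC than in ESC. In ViPSC against TiPSC, limma called 0 of 29 members at an adjusted p under 0.05 (background 5.63% of 18193 genes, 3.2% higher and 2.43% lower). An unadjusted p under 0.05 was found for 7 members, but the share of all genes at that threshold was not counted, here or below. The fit of the 6 compared arrays alone called 4 members (background 14.4%). Non-overlapping values in ViPSC and TiPSC were found for 15 of 29 members (51.7%), against 33.5% of all genes, and the median difference was −0.10 over members and −0.03 over all genes. Hk1 had the smallest adjusted p, with a mean of 9.75 ± 0.09 in ViPSC and 9.26 ± 0.21 in TiPSC (SD, n = 3 arrays each) and a difference of 0.49 ± 0.14 (SE, limma adjusted p = 0.08). Its second probe set, in the fit of every probe set, passed with 0.71 ± 0.14 (limma adjusted p = 0.0285, background 3.91%). For Slc16a1 the difference was −0.37 ± 0.12 (limma adjusted p = 0.117), and for Slc16a3 it was 0.43 ± 0.15 (limma adjusted p = 0.139). Aldoc differed by 0.63 ± 0.24 (limma adjusted p = 0.17). Markers of other cell types moved in the same comparison, with 2 of 8 endothelial markers (Pecam1 and Cldn5) and 2 of 7 blood and macrophage markers (Cd68 and Csf1r) called higher in ViPSC than in TiPSC, and Cldn5 also in ViPSC against ESC. Cd68, for example, was at 8.92, 8.95 and 8.84 in ViPSC, against 7.70, 8.02 and 6.90 in TiPSC. Lyz2, of the same list, was at 6.79, 6.71 and 7.13 in ViPSC, against 7.12, 7.04 and 7.59 in TiPSC. The median difference was 0.29 over the 8 endothelial markers and −0.07 over the 7 blood and macrophage markers. Cd68 and Pecam1 lie on chromosome 11, whose expressed genes were shifted up in ViPSC and down in TiPSC. The part of such cells in the members' values was not tested. Intervals of several members were too wide to exclude a change of 1.5-fold or more: for Pdk1 the 95% interval ran from −0.92 to 0.65 and for Ldhb from −0.52 to 0.80, while for Ldha it ran from −0.26 to 0.07 and for Aldoa from −0.16 to 0.21.

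In ViPSC against ESC, 2 of 29 members rose and 0 fell (6.9%, background 2.14%, of which 1.45% higher and 0.693% lower). An unadjusted p under 0.05 was found for 8 members (share of all genes not counted). The mean of Eno3 was 8.46 ± 0.02 in ViPSC and 7.17 ± 0.45 in ESC (SD, n = 3 arrays each), a difference of 1.29 ± 0.20 (SE, limma adjusted p = 0.0186, over the alternatives 0.000201 to 0.107). Aldoc had a mean of 10.80 ± 0.05 in ViPSC and 9.58 ± 0.57 in ESC, a difference of 1.23 ± 0.24 (limma adjusted p = 0.0403, over the alternatives 0.000264 to 0.177). In both genes all 3 ViPSC arrays lay above all 3 ESC arrays. Both genes lie on chromosome 11. With the chromosome shifts subtracted, the differences were 0.93 for Eno3 (limma adjusted p = 0.0613) and 0.86 for Aldoc (limma adjusted p = 0.127), and neither passed. Both calls also ended in the fit of the 6 compared arrays alone, with 0 members called (background 0.401%, limma adjusted p = 0.0594 for Eno3 and 0.099 for Aldoc), without ESC 2 (0.0588 and 0.145) and without any 1 ViPSC array (0.0925 to 0.107 and 0.148 to 0.177). The Aldoc call ended as well without TiPSC 1 (0.076), TiPSC 2 (0.0624) or ESC 3 (0.0601) and with the mean of its probe sets (0.0676). Of the other members, Pfkm differed by 0.66 ± 0.20 (limma adjusted p = 0.133), Ldhb by 0.77 ± 0.29 (limma adjusted p = 0.218), Bnip3 by 0.47 ± 0.18 (limma adjusted p = 0.21) and Slc16a1 by −0.41 ± 0.12 (limma adjusted p = 0.126). The arrays did not overlap for 12 of 29 members (41.4%, background 22.2%), and the median difference was 0.09 over members and −0.0034 over all genes.

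In TiPSC against ESC, limma called 0 of 29 members (background 0.632%, of which 0.291% higher and 0.341% lower), and 5 had an unadjusted p under 0.05 (share of all genes not counted). Eno3 had the smallest adjusted p, at 7.97 ± 0.18 in TiPSC and 7.17 ± 0.45 in ESC (SD, n = 3 arrays each), a difference of 0.80 ± 0.20 (limma adjusted p = 0.106). Pdk1 differed by 0.70 ± 0.35 (limma adjusted p = 0.327) and Aldoc by 0.59 ± 0.24 (limma adjusted p = 0.238). The fit of the 6 arrays of TiPSC and ESC alone called 0 members as well (background 0.0055%). The arrays did not overlap for 3 of 29 members (10.3%, background 15.8%). Both comparisons with ESC use the same 3 ESC arrays and are not independent of each other.

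**Figure D3:**
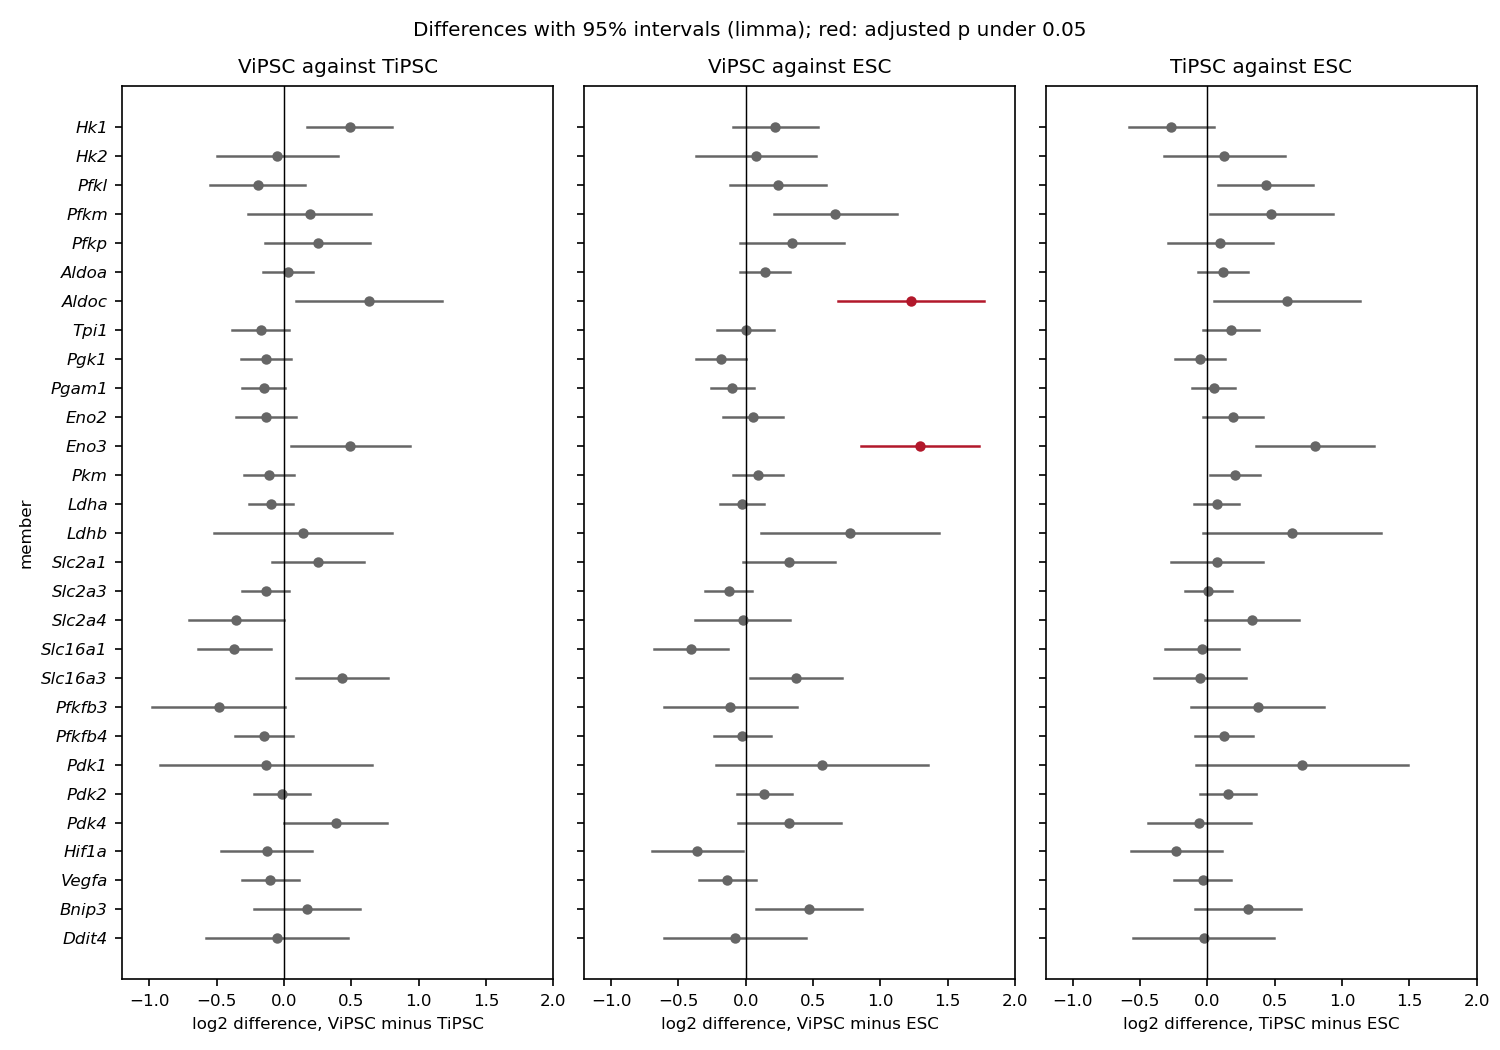
Differences in log2 units (horizontal axis) for 29 members (vertical axis) in ViPSC minus TiPSC, ViPSC minus ESC and TiPSC minus ESC. Points are limma estimates, lines are 95% intervals, and red marks an adjusted p under 0.05 over all genes. Aldoc (1.23) and Eno3 (1.29) in ViPSC minus ESC are the red points.

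The arrays of ESC differed among themselves for many members, and those of ViPSC hardly at all. The median range over members was 0.09 log2 units in ViPSC, 0.26 in TiPSC and 0.44 in ESC, and over all genes 0.15, 0.23 and 0.29. Within ESC, 13 of 29 members spanned at least 0.5 log2 units (44.8%, background 25%), against 7 within TiPSC (24.1%, background 12.7%) and 0 within ViPSC (background 2.46%). The members spanning 0.5 in ESC included the phosphofructokinases Pfkl, Pfkm and Pfkp, with Hk2, Aldoc, Eno3, Ldhb, Pdk1, Pdk4 and Bnip3. Pdk1 had the widest span of the 29, with 11.21 in ESC 1, 9.75 in ESC 2 and 9.58 in ESC 3. In 11 of these 13 members the highest ESC array was ESC 1, the array whose X-linked genes were at the level of the induced cells. The exceptions were Pfkp (11.34 in ESC 3, 11.19 in ESC 1) and Slc16a3 (6.62 in ESC 3, 6.24 in ESC 1). How often ESC 1 was the highest among all genes with such a span was not counted. Over all genes, ESC 1 correlated at 0.988 with ESC 2 and 0.984 with ESC 3, against 0.993 between ESC 2 and ESC 3. With the induced arrays ESC 1 correlated at 0.9926 to 0.9938, above its correlation with either other ESC array. For ESC 2 the values with the induced arrays were 0.9853 to 0.9891, and for ESC 3 they were 0.9811 to 0.9874. Without ESC 1, limma called 8 of 29 members in ViPSC against ESC, all higher (background 13.8%), 8 in TiPSC against ESC, all higher (background 16.7%), and 3 in ViPSC against TiPSC (background 11%). Pdk1 was then higher by 1.08 ± 0.10 in ViPSC and by 1.22 ± 0.10 in TiPSC (SE, limma adjusted p = 0.000456 and 0.000235), and Pfkm by 0.93 ± 0.12 and 0.74 ± 0.12 (limma adjusted p = 0.00138 and 0.00356). With all arrays, the limma adjusted p was 0.453 and 0.327 for Pdk1 and 0.133 and 0.26 for Pfkm. ESC 1 was the high ESC array for both, so leaving it out widens the difference and narrows the ESC spread. The p values without ESC 1 are therefore no independent evidence. Aldoc, Eno3, Hk2, Ldhb and Pfkl were called in both of these comparisons, Pdk4 in ViPSC against ESC and Pkm in TiPSC against ESC. The labels give no reason to prefer either set of ESC arrays, and 2 arrays remain in that group.

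Within TiPSC, TiPSC 3 stood apart for several members. Its Ldhb was 11.99 against 12.93 and 13.04 in the other TiPSC arrays, its Bnip3 11.76 against 12.31 and 12.34, its Slc2a1 13.27 against 12.94 and 12.73, and its Ddit4 10.73 against 10.10 and 10.02. The expressed genes of chromosome 8 were shifted by 0.45 on this array, against −0.02 to −0.0084 on the other TiPSC arrays. No member of the tested table lies on chromosome 8. The fibroblast and feeder markers, by contrast, had their highest pluripotent median in TiPSC 1 (7.10, against 6.64 in TiPSC 2 and 6.21 in TiPSC 3, 6.08 to 6.25 in ViPSC and 6.09 to 6.22 in ESC). The part of either in these values was not tested.

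**Figure D4:**
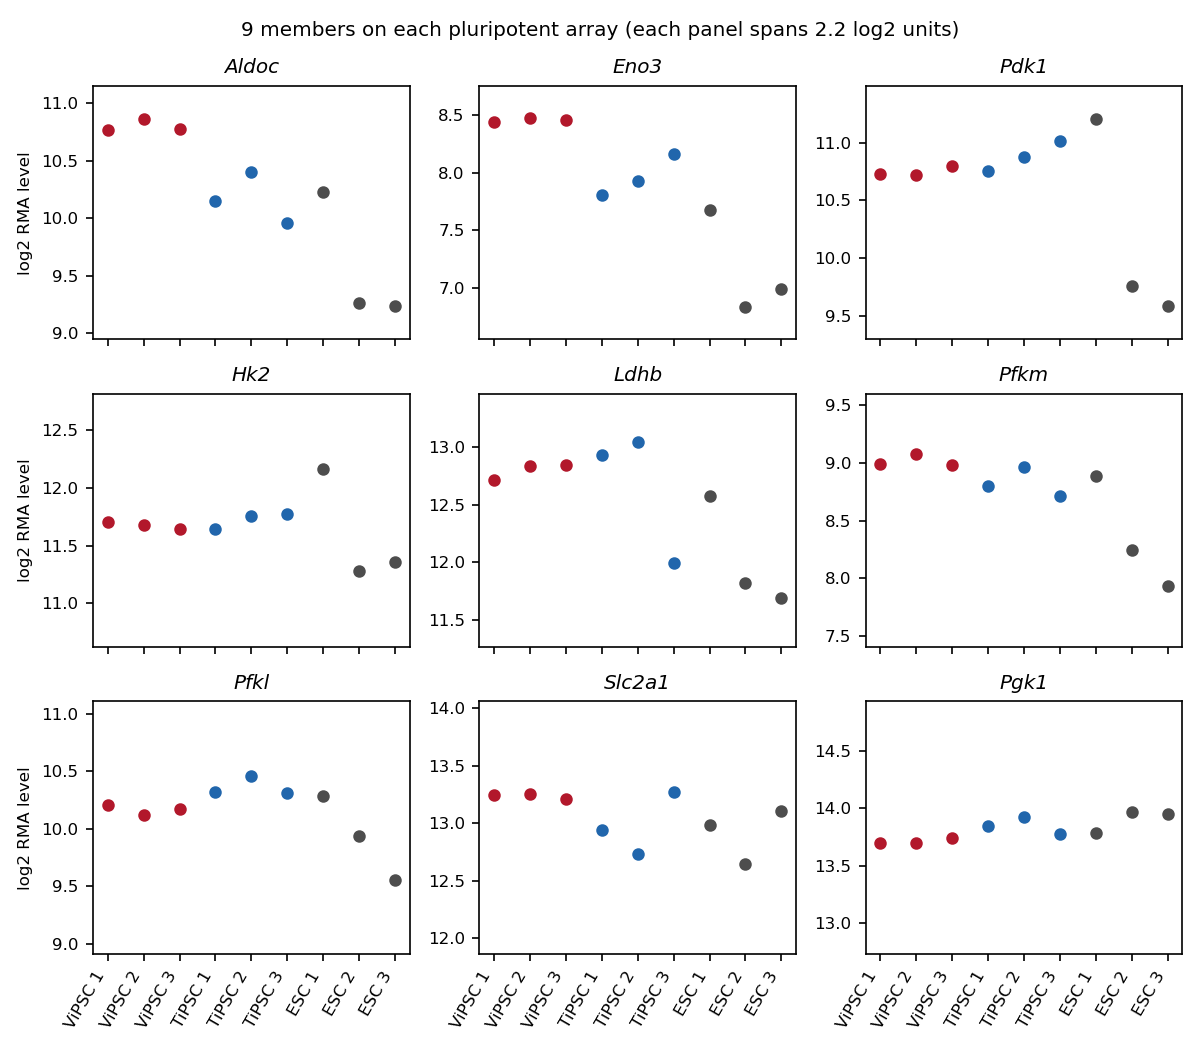
Log2 RMA levels (vertical axis, each panel spanning 2.2 log2 units) of 9 members on each pluripotent array (horizontal axis), coloured red for ViPSC, blue for TiPSC and grey for ESC. The ViPSC points lie close together, ESC 1 lies above ESC 2 and ESC 3 for Aldoc, Eno3, Pdk1, Hk2, Ldhb, Pfkm and Pfkl, and TiPSC 3 is the low TiPSC array for Ldhb.

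Other genes of glycolysis, pyruvate entry, the pentose phosphate pathway and the hypoxia pathway were described from a list of 85 genes, of which 78 were measured. In ViPSC against TiPSC, 5 rose and 1 fell, in ViPSC against ESC 3 rose and 1 fell, and in TiPSC against ESC 0 rose and 2 fell. Over all genes, limma called 5.63%, 2.14% and 0.632% in these comparisons, so 6 of 78 in ViPSC against TiPSC is near the background. Ak4, a mitochondrial adenylate kinase induced by HIF-1, had a mean of 12.54 ± 0.14 in ViPSC, against 11.14 ± 0.10 in TiPSC and 11.49 ± 0.30 in ESC (SD, n = 3 arrays each). It was 1.41 ± 0.15 higher in ViPSC than in TiPSC (SE, limma adjusted p = 0.00197) and 1.05 ± 0.15 higher than in ESC (limma adjusted p = 0.014). The sources held it at 7.04 in VM and 9.09 in TTF, below every pluripotent array. The other genes that rose in ViPSC against TiPSC were Pgam2 (0.99 ± 0.15, limma adjusted p = 0.00898) and the collagen prolyl hydroxylase P4ha2 (0.61 ± 0.11, limma adjusted p = 0.0143), both on chromosome 11, with the phosphoglucomutase Pgm2 (0.46 ± 0.10, limma adjusted p = 0.0317) and H6pd of the endoplasmic reticulum (0.41 ± 0.09, limma adjusted p = 0.0337). Bpgm, the bisphosphoglycerate mutase, fell in the same comparison.

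Mpc1, a subunit of the carrier that brings pyruvate into the mitochondrion, was lower in both induced groups than in ESC. It was at 7.79, 7.74 and 7.92 in ViPSC and 7.68, 7.55 and 7.63 in TiPSC, against 8.67, 9.27 and 8.56 in ESC. No induced array overlapped the ESC arrays, and the differences were −1.02 ± 0.17 for ViPSC minus ESC and −1.22 ± 0.17 for TiPSC minus ESC (SE, limma adjusted p = 0.0222 and 0.0218). Mpc1 was higher still in the sources, at 11.68 in VM and 10.07 in TTF. Ldhc, the lactate dehydrogenase of the male germline, was 1.24 ± 0.22 higher in ViPSC than in ESC (limma adjusted p = 0.0286), and Narf, on chromosome 11, 0.59 ± 0.12 (limma adjusted p = 0.0482). Angptl4, a HIF and lipid-responsive secreted inhibitor of lipoprotein lipase, fell by 0.81 ± 0.14 in TiPSC against ESC (limma adjusted p = 0.045). The alternative fits were not followed for single genes of this list. In TiPSC against ESC, the fit of the 6 compared arrays alone called 1 of 18193 genes, so Mpc1 and Angptl4 cannot both pass there. In ViPSC against ESC, the genes called went from 390 to 73 in that fit and to between 22 and 2519 without 1 array. The remaining genes named by the rule did not pass. They were the VEGF receptor Flt1 in ViPSC minus ESC (0.94 ± 0.21, limma adjusted p = 0.0534) and, in TiPSC minus ESC, Lox (0.84 ± 0.18, limma adjusted p = 0.0857), the heme oxygenase Hmox1 (0.54 ± 0.13, limma adjusted p = 0.0994) and P4ha2 (−0.42 ± 0.11, limma adjusted p = 0.112).

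In the source cells, 7 of 10 pyruvate entry genes were at least 1 log2 unit higher in VM than in TTF and 1 was lower, against 10.6% higher and 13.6% lower among all genes. The 7 included the pyruvate dehydrogenase subunits Pdha1 (12.71 in VM, 11.47 in TTF) and Pdhb (13.14 in VM, 10.25 in TTF). The same 7 genes were at least 1 log2 unit lower in all ViPSC arrays than in VM. Of 7 pentose phosphate genes, 4 were lower in VM than in TTF, among them the transketolase Tkt (10.56 in VM, 12.45 in TTF). Of 40 hypoxia pathway genes, 4 were higher in VM than in TTF, a share near the 10.6% of all genes, and 12 were lower, against 13.6% of all genes. Among them were Epas1, the HIF-2 alpha subunit known from endothelium (11.55 in VM, 5.76 in TTF), and the matrix enzyme Lox (7.96 in VM, 14.32 in TTF). Endothelial and fibroblast markers also differ between these arrays, as given above, and the part of those cells in these values was not tested. Of 21 other glycolysis genes, 2 were higher in VM, Pgam2 and the muscle fructose bisphosphatase Fbp2 (7.86 in VM, 4.69 in TTF), and 2 were lower, against 10.6% and 13.6% of all genes.

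**Figure D5:**
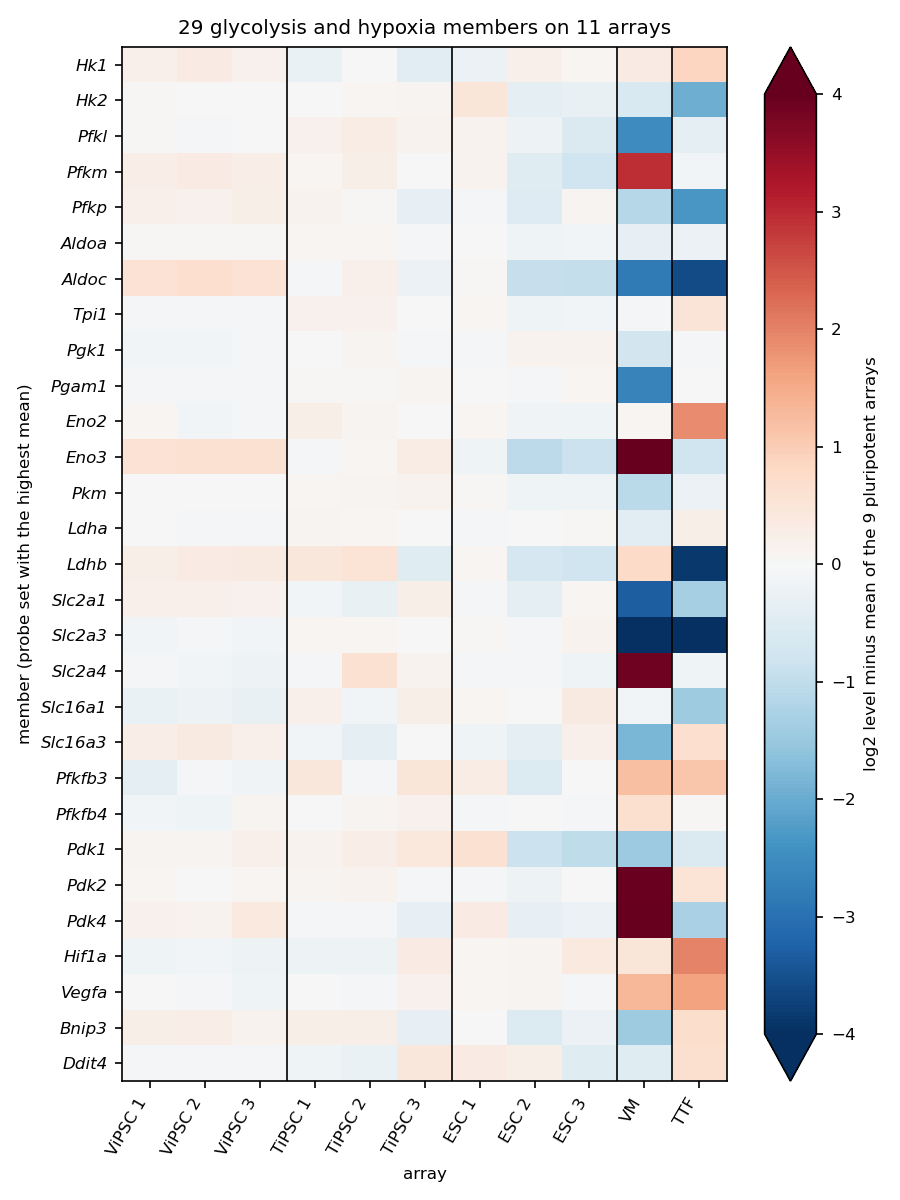
Log2 level of 29 members (rows, in pathway order) on each of the 11 arrays (columns), minus the mean of the 9 pluripotent arrays. Red is higher and blue lower, and differences beyond 4 log2 units share the end colour. The VM and TTF columns hold the strong colours, with Pfkm, Eno3, Slc2a4, Pdk2 and Pdk4 red in VM and Slc2a3 blue in both.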

How the data were processed

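The deposited table holds 1 column per array with log2 expression values that the authors made with RMA, per the submitters' processing notes, which give no version. The chip description used is not given in the sources used here. Gene symbols came from GEO's annotation of the array and chromosomes from a RefSeq table (GRCm38.p6). The 64 control probe sets, 932 with several symbols and 9160 without a symbol were left out, and a gene with several probe sets was represented by the one of highest average level on the 11 arrays, giving 18193 genes. ViPSC, TiPSC and ESC were compared with limma 3.58.1 in R 4.3.3 (1 mean per group, spread shared by 9 arrays, eBayes, two-sided). The adjusted p is Benjamini-Hochberg over all genes, with a threshold of 0.05. VM and TTF, with 1 array each, were compared by a difference of at least 1 log2 unit, for replicated groups in every array. The number of arrays limits the precision. The fit was tested on simulated data.

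Values of every array are given for members that passed, that differed by at least 2 log2 units between VM and TTF, or that form an isoform family, and other members by range. Of other pathway genes, the 5 with the smallest adjusted p per comparison were named, and any further ones were chosen after their values were seen. Members and lists were chosen with earlier results of these data known. Genes were called expressed from a mean of 7 over the pluripotent arrays. Alternatives were other probe set choices, array sets, weights, normalization, filters, chromosome shifts, a replicate block and leaving out each array.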

Additional observations from a re-analysis of the deposited data

Results flagged for a closer look

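For 10 of 29 members, all 3 ViPSC arrays lay on one side of the VM array and all 3 TiPSC arrays on the other side of the TTF array, as for 18% of all genes. The difference between the origins was not tested, since each source had 1 array. The value given is ViPSC minus VM less TiPSC minus TTF, in log2 units. Pfkm (−2.87), Eno3 (−6.01) and Slc2a4 (−4.41), known from muscle, and the kinase gene Pdk4 (−6.54) lay below VM and above TTF. Ldhb (−4.50) and Slc16a1 (−1.67) took the same direction. For Pfkm, Eno3, Slc2a4 and Pdk4 the larger part was ViPSC minus VM. Their TiPSC minus TTF was 0.21 for Pfkm, 0.89 for Eno3, 0.405 for Slc2a4 and 1.15 for Pdk4. The Slc2a4 value lies near the bottom of the scale, and its second probe set gave 0.02, so its position above TTF is not secure. The lactate exporter Slc16a3 (2.94), Bnip3 (2.31), Ddit4 (1.07) and Ldha (0.57) lay above VM and below TTF.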

How the results depend on the processing

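Over all genes, the count called in ViPSC against TiPSC was 1024, and it was 1761 with every probe set tested, 2621 with the 6 compared arrays alone, 3613 with array weights, 607 without chromosomes 8, 11, X and Y (an alternative chosen after seeing the data) and 207 to 1994 without 1 array. In ViPSC against ESC it was 390, and 73 with the 6 arrays, 3453 with weights, 184 without those chromosomes and 22 to 2519 without 1 array. In TiPSC against ESC it was 115, and 65 with the mean of all probe sets, 1 with the 6 arrays, 2913 with weights and 12 to 3038 without 1 array. Among the fits without 1 array, the highest counts came without ESC 1. Members called in ViPSC against TiPSC numbered 0, and 1 with the mean of all probe sets (Hk1), 4 with the 6 arrays, 5 with weights, 2 with chromosome shifts subtracted (Pdk2 and Slc2a4, lower) and 0 to 3 without 1 array. In ViPSC against ESC they numbered 2, and 1 with the mean of all probe sets (Eno3), 0 with the 6 arrays, 12 with weights, 0 with chromosome shifts subtracted, 0 without those chromosomes, where both genes lie outside the fit, and 0 to 8 without 1 array. In TiPSC against ESC they numbered 0, and 8 with weights and 0 to 8 without 1 array. The cause of these changes was not tested.

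Same-numbered arrays of different groups had deviations correlated at −0.12 to 0.12, which showed no pairing by number. Differently numbered arrays were not set beside them, and a shared batch or culture was not tested. With the replicate number as a block, the counts were 623, 103 and 9 genes in the 3 comparisons, and 0 members were called in each.

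With 2 log2 units in place of 1, the genes past the fold numbered 2402 for ViPSC against VM (5555 at 1), 1913 for TiPSC against TTF (4807), 1693 for VM against TTF (4413) and 748 for pluripotent arrays against both sources (2263). The members numbered 11 (17), 3 (10), 10 (18) and 1 (3). Without genes below the median level, 2879 genes were past the fold for VM against TTF. Without 1 array, the genes numbered 5658 to 5689, 4947 to 5226 and 2272 to 2351, and the members 17, 10 to 11 and 3 to 4, for ViPSC against VM, TiPSC against TTF and pluripotent arrays against both sources. RMA values near the bottom of the scale, as for Pdk2, Eno2 and Slc2a4 outside VM, limit what small differences there show.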

Other observations

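As for Hk1 and Pfkfb3 above, probe sets of the same gene disagreed for Pdk1. Of its 4 probe sets, that used above and the next brightest were lower in VM (9.14 and 8.42) than in TTF (10.01 and 9.39). Another was higher in VM (9.78) than in TTF (9.18), and the dimmest was at 3.77 in VM, against 3.96 in TTF. On the probe set with VM at 9.78, ViPSC minus VM was −1.26, against 1.61 on the probe set used above. On the probe set with the turned order, ESC 1 was again the high ESC array, at 9.13 against 7.97 in ESC 2 and 7.96 in ESC 3. For Hif1a, 3 of 4 probe sets were higher in TTF than in VM by more than 1 log2 unit, and the other was at 4.29 in VM and 4.56 in TTF.

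Some hypoxia pathway genes, like Pdk1, were highest in ESC 1 among the ESC arrays. Epas1 was at 9.96 in ESC 1, 8.52 in ESC 2 and 7.87 in ESC 3, and Egln3, a HIF prolyl hydroxylase that HIF-1 induces, was at 9.32, 7.99 and 8.65 in the same arrays. These genes were chosen after their values were seen, and the differences between single arrays have no test.

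Of the other marker lists, 7 blood and macrophage markers had medians of 4.11 to 4.36 in ViPSC, 4.18 to 4.51 in TiPSC and 4.13 to 4.70 in ESC, against 5.53 in VM and 5.65 in TTF, although Cd68 and Csf1r were called higher in ViPSC than in TiPSC. The 7 skeletal muscle markers had medians of 3.61 to 4.06 on the pluripotent arrays, against 4.07 in VM and 3.74 in TTF. These medians hide single markers: 3 (Ckm, Acta1 and Tnni2) were at least 1 log2 unit higher in VM than in TTF, and 0 were lower. Ckm was at 14.15 in VM and 5.17 in TTF.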
